A study of Mus musculus with 2 samples.

Results

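The HoxB cluster is a row of homeobox genes on mouse chromosome 11, all transcribed in the same direction, from Hoxb13 at one end through Hoxb9, Hoxb8, Hoxb7, Hoxb6, Hoxb5, Hoxb4, Hoxb3 and Hoxb2 to Hoxb1 at the other. All 10 protein-coding HoxB genes of the annotation were taken, out of 21911 protein-coding genes measured in the series. They lie on mm10 (GRCm38) between chr11:96194316-96368256, a stretch of 173941 bp with 10 gene bodies and 9 gaps between them. The genes were chosen by the bases and peaks seen in this stretch in the same 4 lists of peaks, so the coverage values are a description and no test is attached to them. The series maps histone H3 trimethylated at lysine 27 (H3K27me3) by chromatin immunoprecipitation and sequencing in MEL, an immortalized mouse erythroleukaemia line kept as a counterpart to the human K562 leukaemia line. There is 1 group of 2 biological replicates, with no treatment, genotype or other cell type. Both replicates carry the same biosample label and nothing says that they were separate cultures, so their spread may be partly technical.

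H3K27me3 is laid down by Polycomb repressive complex PRC2 and read by PRC1, and Hox clusters are its classical targets. In embryos the clusters lose the mark progressively as genes are switched on along the body axis, and genes at the Hoxb1 end are activated earlier than those at the Hoxb13 end. In blood, several HoxB genes are active in stem and progenitor cells and fall silent during maturation. The cluster also carries the microRNA genes Mir196a-1 and Mir10a, whose products are known to target Hox messages.

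The mature microRNAs of the cluster are shown because the 2 loci differed in coverage, as described further on. Capitals mark the seed, bases 2 to 8, in the RefSeq sequences (GRCm38.p6), and miR-10b of HoxD and miR-196b of HoxA are given for comparison, since each shares its seed with a HoxB microRNA.
mmu-miR-196a-5p (chr11:96265187-96265208, plus strand): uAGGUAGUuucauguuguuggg
mmu-miR-196b-5p (chr6:52230129-52230150, minus strand): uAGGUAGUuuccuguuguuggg
mmu-miR-10a-5p (chr11:96317186-96317208, plus strand): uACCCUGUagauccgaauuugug
mmu-miR-10b-5p (chr2:74726074-74726096, plus strand): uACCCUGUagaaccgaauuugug

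The promoters of Hoxb8 and Hoxb4 are shown because the start of one lay under a peak of the replicated list (the authors' subset of peaks called on both replicates together) and the other did not. Each is the 250 bases before the RefSeq start, on the plus strand, and capitals mark the bases under a replicated peak. Of the 10 genes, 3 were matched in the RefSeq promoter table (Hoxb8, Hoxb4 and Hoxb1).
Hoxb8 promoter (chr11:96281655-96281904): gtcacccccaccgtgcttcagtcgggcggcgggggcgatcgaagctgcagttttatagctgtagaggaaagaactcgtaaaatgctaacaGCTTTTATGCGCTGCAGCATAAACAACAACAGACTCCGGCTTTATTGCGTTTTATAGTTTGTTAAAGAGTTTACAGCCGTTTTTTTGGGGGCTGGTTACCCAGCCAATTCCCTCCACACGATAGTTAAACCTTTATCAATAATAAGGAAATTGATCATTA
Hoxb4 promoter (chr11:96318017-96318266): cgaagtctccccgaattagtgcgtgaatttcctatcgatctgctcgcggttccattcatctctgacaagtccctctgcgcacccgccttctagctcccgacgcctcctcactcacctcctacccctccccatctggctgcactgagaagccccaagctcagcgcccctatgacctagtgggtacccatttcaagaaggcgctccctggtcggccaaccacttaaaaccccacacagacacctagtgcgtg
The covered bases of the Hoxb8 promoter numbered 160 in the replicated list, and 140 and 0 in replicates 1 and 2. No base of the Hoxb4 promoter was covered in these lists or in the pooled list, and the Hoxb1 promoter likewise had 0 covered bases in all 4 lists.

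The last pair of sequences shows peaks with few CpG dinucleotides, with every CpG in capitals. The first is the 5′ end of a replicated peak at chr11:96268103-96268595, one of 4 that share the highest −log10 q of the cluster (2.52), which lay between Hoxb13 and Hoxb9. The second is the replicated peak with the highest −log10 q near the start of Hoxb3 (1.49), which lay in an intron.
Gap peak (chr11:96268103-96268402): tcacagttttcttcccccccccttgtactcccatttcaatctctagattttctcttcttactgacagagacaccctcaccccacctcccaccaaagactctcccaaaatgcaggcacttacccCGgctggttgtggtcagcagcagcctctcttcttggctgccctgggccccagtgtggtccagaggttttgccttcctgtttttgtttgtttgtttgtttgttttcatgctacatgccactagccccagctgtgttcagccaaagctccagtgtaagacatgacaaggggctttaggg
Hoxb3 peak (chr11:96324077-96324297): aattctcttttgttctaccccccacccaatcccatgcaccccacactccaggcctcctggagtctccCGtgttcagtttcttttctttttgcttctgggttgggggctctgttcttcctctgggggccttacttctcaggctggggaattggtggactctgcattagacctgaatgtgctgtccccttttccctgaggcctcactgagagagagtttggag
Each of the printed stretches held 1 CpG, and both peaks were poorer in CpG than most: their observed-to-expected CpG ratios were 0.0316 and 0.0644, against a median of 0.167 and 2 CpG over the 39 replicated peaks. The peak that covers the start of Hoxb8 held 6 within 183 bp, and 4 of the 39 replicated peaks of the cluster held none.

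Peaks lay in patches along the cluster. Of the 10 gene bodies, 6 were bare in the replicated list and in replicate 1, and 4 in the pooled list and in replicate 2. Most protein-coding genes had a bare body too. A covered base in the body was found in 11.5% of them in the replicated list and 15% in the pooled list. In replicates 1 and 2 it was found in 16.4% and 20.4%. In the cluster the replicated list held 39 peaks and the pooled list (called on both replicates together) 62. The own list of replicate 1 held 49 there and that of replicate 2 held 92. Covered bases made up 7.28% of the stretch in replicate 1 and 12.2% in replicate 2, a mean of 9.72% ± 3.45 (SD, n = 2). Replicate 2 also had more peaks in the whole genome, 106995 against 70901, so its higher share here went with a longer list. When the cluster was set among 683 windows of its own length tiled along chromosome 11, 9.52% of the windows were covered as much or more in the replicated list, and 9.08% and 6% in replicates 1 and 2. The median window was covered over 0.0868% in the replicated list and the highest over 37.7%. In the pooled list the share of windows was 8.05%. HoxB, a stretch chosen for its peaks, stood among the more covered windows of its own chromosome in each list and well below the densest.

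**Figure D1:**
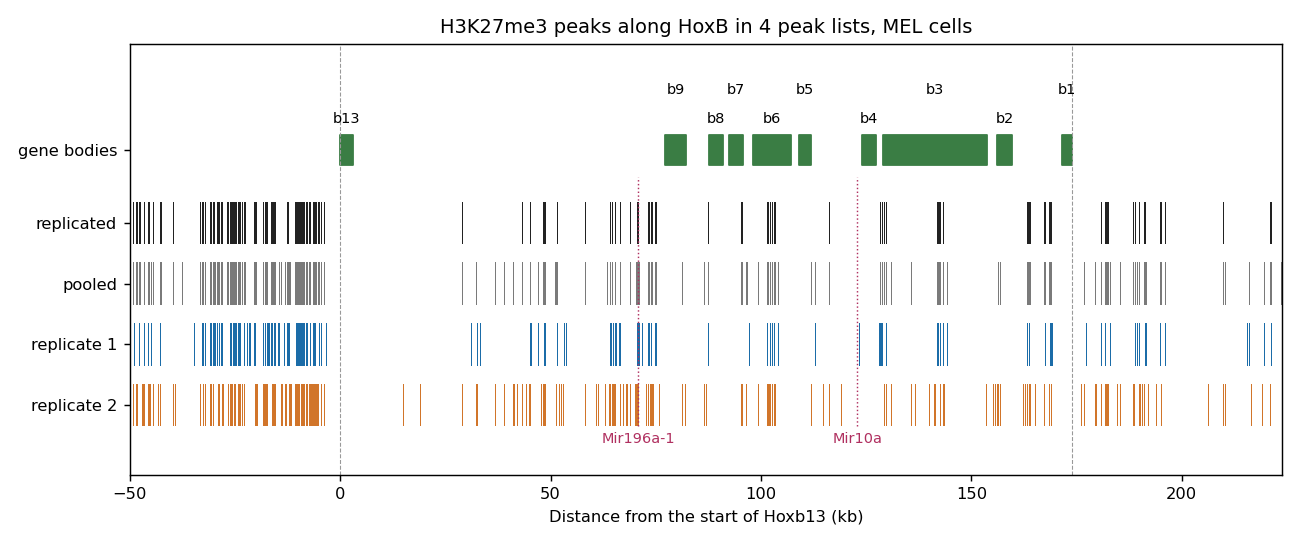
Positions of peaks (vertical bars, to scale) in the 4 lists along HoxB and 50 kb on either side, with gene bodies in green (b13 stands for Hoxb13, and so on). The x axis is the distance in kb from the start of Hoxb13, dashed lines mark the ends of the cluster, and dotted lines mark the microRNA genes. Peaks were dense before Hoxb13, stopped short of it, and returned in the gap before Hoxb9.

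The Hoxb13 end of the cluster was bare beside a densely covered neighbour. Hoxb13, the gene nearest the tail end of the axis and active in hindgut and prostate, had 0 covered bases over its 3132 bp in all 4 lists. It lay in the longest uncovered stretch of the cluster, 30254 bp in the replicated and pooled lists (chr11:96190810-96221063), 29114 bp in replicate 1 and 17093 bp in replicate 2. In replicate 2 the stretch ended at a peak of 140 bp, at 96209322. Its −log10 q was 0.8, the median of that replicate's peaks in the cluster. In the 50 kb before Hoxb13, by contrast, peaks covered 35.4% in the replicated list, and 32.5% and 36.2% in replicates 1 and 2. With peaks joined within 3 kb, this neighbouring domain ended 3506 bp before the start of Hoxb13 in the replicated list, and 2357 and 2087 bp before it in replicates 1 and 2. From 10 kb to 5 kb before the start the coverage was 80.1%, 60.7% and 80.9% in these 3 lists, and in the first 5 kb after the start it was 0% in each. The domain reached over the end of Ttll6, a tubulin glutamylase gene, and over Gm11535, a long non-coding RNA gene at 96177551 to 96178800 named here for its values, which was covered over 68.8% of its length in the replicated list, and 56% and 44.1% in replicates 1 and 2.

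Between Hoxb13 and Hoxb9 lies the longest gap of the cluster, 74009 bp, and it held 20 of the 39 replicated peaks. Its coverage was uneven: the 50% nearer Hoxb13 was covered over 1.22% in the replicated list, and 2.02% and 4.03% in replicates 1 and 2, whereas the 50% nearer Hoxb9 was covered over 13.8%, 16.2% and 23.8%. The part nearer Hoxb9 held 43.8% of all covered bases of the cluster in the replicated list. With peaks joined within 3 kb, the longest domain of the cluster in the replicated list lay here. It measured 10984 bp with 10 peaks (chr11:96258546-96269529), of which 29% was covered. In the pooled list another domain of the gap was longer, 15694 bp (chr11:96231143-96246836), against 11788 bp for the one nearer Hoxb9. The domain nearer Hoxb9 measured 11044 bp in replicate 1, and in replicate 2 it was part of one of 17738 bp. Its last covered base in the replicated list lay at -1928 bp from the start of Hoxb9. The domain touched the body of no Hox gene in that list or in either replicate.

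Hoxb9, a gene of the thoracic level of the axis, had no covered base in its body in the replicated list or in replicate 1. Replicate 2 had 355 bases there (6.91% of the body), downstream of the coding exons, and the pooled list had 273. Within 5 kb of its start the bases covered were 1421 in the replicated list, and 1164 and 1728 in replicates 1 and 2, of which 1421, 1164 and 1411 lay upstream. Most of the covered bases around the Hoxb9 start thus lay on the side of the gap in each list.

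Hoxb8, known for holding myeloid progenitors in an undifferentiated state when overexpressed, had a replicated peak of 183 bp over its start (chr11:96281745-96281927; signal value 3.95, −log10 p 4.41, −log10 q 0.98). The peak ended 23 bases inside the gene, in its 5′ untranslated region. Replicate 1 had a peak of 163 bp at the same place with −log10 q 2.04. Replicate 2 had 728 bases within 5 kb of the start, the nearest at -469 bp (upstream), but no base in common with replicate 1. Both replicates therefore had peaks within 1 kb of the start, at different bases.

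Hoxb7, next in the row, had 1 replicated peak of 292 bp in its 3′ untranslated region (chr11:96289641-96289932). It was weak, with −log10 q 0.114. Replicate 1 covered 167 bases of the gene body and replicate 2 covered 357, of which all 167 were shared. No peak of the 4 lists lay within 2.5 kb of its outermost start. Its other annotated start, 2092 bp downstream, had covered bases within 1 kb in each list. They numbered 74 in the replicated and pooled lists, and 13 and 108 in replicates 1 and 2.

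Hoxb6, expressed early in blood formation in the embryo, was the most covered gene body of the cluster. Peaks covered 17.5% of its 9094 bp in the replicated list, and 12.5% and 19.2% in replicates 1 and 2, a mean of 15.9% ± 4.76 (SD, n = 2). The 4 replicated peaks formed 1 patch of 2243 bp (chr11:96295742-96297984) in an intron, where the antisense RNA gene Hoxb5os also runs. Peaks carry no strand, so a gene and its antisense partner share their covered bases. All 4 overlapped a peak in both replicates, and the replicates shared 762 covered bases in the body. The highest −log10 q of the patch was 1.1 in the replicated list, and 2.69 and 1.75 in replicates 1 and 2. The patch lay between the outermost start of Hoxb6 and its other annotated start, 6695 bp downstream. Within 1 kb of that inner start 0 bases were covered in the replicated list and in replicate 2. Replicate 1 had 210 there and the pooled list 350.

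Hoxb5, a marker of long-term blood stem cells in the mouse, had 0 covered bases over its 2786 bp in all 4 lists. The gaps on its Hoxb6 side (1766 bp) and between Hoxb8 and Hoxb7 (1307 bp) were also bare in each list. Within 5 kb of the Hoxb5 start the replicated list had 0 bases, replicate 1 had 350 and replicate 2 had 155, with none shared between the replicates.

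Hoxb4, which expands blood stem cells when overexpressed, likewise had 0 covered bases over its 3372 bp in all 4 lists. Replicate 1 alone had a peak within 1 kb of the start, of 154 bp and at -515 bp from it. The gap behind it was among the most covered of the cluster: of the 1687 bp between Hoxb4 and Hoxb3, 33.5% was covered in the replicated list, and 50.5% and 6.99% in replicates 1 and 2. The 118 bases of replicate 2 all lay within those of replicate 1. The replicates differed more here than in any other gap, and the SD of 30.8 percentage points exceeded their mean of 28.7%.

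Hoxb3, the longest gene of the cluster at 24605 bp and a hindbrain regulator, carried 2 patches. The first ran over its outermost start (4 peaks, chr11:96322505-96324297) and covered 1121 bases within 1 kb of the start in the replicated list, and 1029 and 726 in replicates 1 and 2. The second lay in an intron (3 peaks, chr11:96336055-96337728), beside and within the antisense RNA gene Gm11536. Its last peak had the highest −log10 q of the cluster in replicate 2 (4.56), against 1.45 for the overlapping peak of replicate 1. Of the body, 6.66% was covered in the replicated list, and 6.36% and 12.4% in replicates 1 and 2. The other 3 annotated starts of Hoxb3, 4736 to 20443 bp downstream, had no covered base within 1 kb in the replicated list or in replicate 1, and replicate 2 had 141 bases near the first of these 3.

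Hoxb2, active in hindbrain and in erythroid cells, was the gene on which the replicates differed most. Replicate 2 had 1044 bases covered within 5 kb of its start and a peak over the start itself. Replicate 1 had 0, with its nearest peak 7105 bp away. The replicated list had 0 and the pooled list 329. Hoxb2 lay in an uncovered stretch of 19859 bp in the replicated list (chr11:96337729-96357587) and of 18805 bp in replicate 1.

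Hoxb1, which specifies a hindbrain segment, had 0 covered bases over its 2505 bp in all 4 lists. The 11739 bp between Hoxb2 and Hoxb1 were covered over 13.7% in the replicated list, and 13.5% and 20.7% in replicates 1 and 2. Each of the 5 replicated peaks there overlapped both replicates, and the last ended at 96363538, at -2214 bp from the start of Hoxb1. Within 5 kb of that start the covered bases were 974 in the replicated list, and 1102 and 1199 in replicates 1 and 2. In these totals Hoxb1 and Hoxb3 had the least spread between replicates among the genes with any covered base (SD 68.6 and 81.3 bases, n = 2). The positions matched less well: the replicates shared 556 bases within 5 kb of the Hoxb1 start and 308 at Hoxb3.

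Counted over the 10 genes, most had a peak within 5 kb of the start and few had one at the start itself. In the replicated list 4 genes had a covered base in the body (Hoxb3, Hoxb6, Hoxb7 and Hoxb8), against 11.5% of all protein-coding genes. The count was 4 in replicate 1 (background 16.4%) and 6 in replicate 2 (20.4%), where Hoxb2 and Hoxb9 joined the other 4. Within 5 kb of the start 8 genes had a covered base in the replicated list (background 10.4%), 9 in replicate 1 (15.7%) and 10 in replicate 2 (19.8%). Within 1 kb of the start the counts were 2 in the replicated list (Hoxb3 and Hoxb8; background 3%), 4 in replicate 1 (with Hoxb4 and Hoxb6; 4.46%) and 3 in replicate 2 (with Hoxb2; 6.28%). In the pooled list 6 genes had a covered body (15%), 10 had covered bases within 5 kb (14.2%) and 3 had a peak within 1 kb (4.48%). Peaks of the replicated list covered 1.86% of chromosome 11 and 0.477% of the genome, and among the genes of that chromosome alone the background for a covered body was 18.2% in the replicated list, 21.2% in the pooled list, 22.1% in replicate 1 and 25.7% for replicate 2. Within 5 kb of the start it was 20.7%, 25%, 27.3% and 30.2%, and within 1 kb 6.54%, 9.29%, 8.98% and 11.5%, in the same order of lists. Neighbouring genes share peaks in these windows, so the 10 genes are not independent, and since the stretch was chosen for its peaks nothing is read from the counts. A bare body was found in all 4 lists for Hoxb13, Hoxb5, Hoxb4 and Hoxb1. Most protein-coding genes likewise had a bare body in each list.

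**Figure D2:**
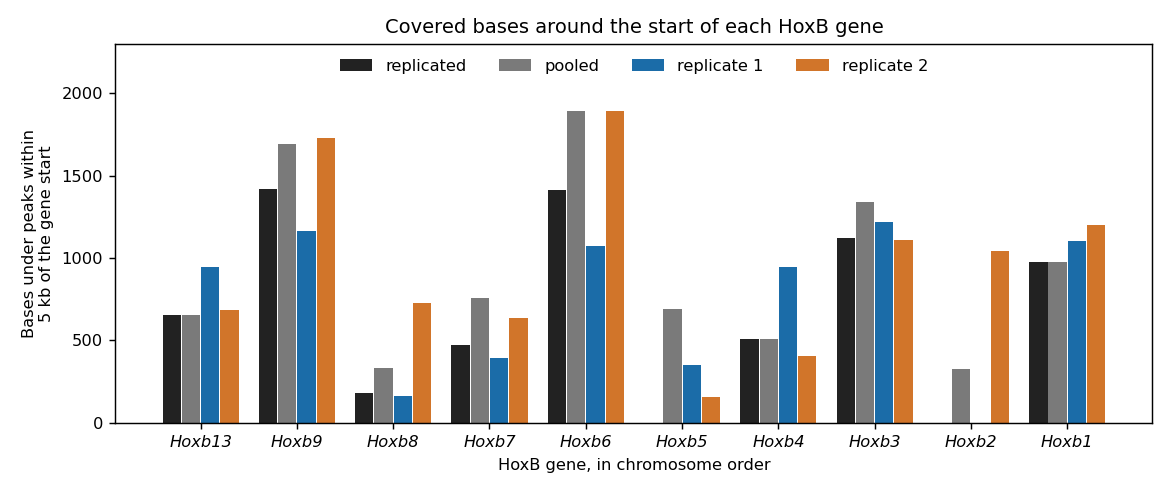
Bases under peaks within 5 kb on either side of the outermost start of each HoxB gene (y axis), with 1 bar per list. Hoxb9 and Hoxb6 had the most in the replicated list (1421 and 1414), Hoxb5 and Hoxb2 had 0 there, and replicate 2 had 1044 at Hoxb2 where replicate 1 had 0.

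Within the genes, peaks lay in introns and untranslated exon sequence and hardly touched coding exons. Of the 8469 bp of coding exon of the 10 genes, 0 were covered in replicate 1 and in the pooled and replicated lists, and 21 in replicate 2, at the end of the Hoxb7 coding sequence. Introns were covered over 9.11% in the replicated list, and 7.64% and 13.4% in replicates 1 and 2, and the remaining exon sequence over 2.13%, 1.34% and 7.75%. Over all protein-coding genes of chromosome 11 the shares in the replicated list were closer together, 1.24% of coding exon, 1.6% of intron and 1.38% of other exon. The gap between coding exon and intron was thus wider in HoxB than over the chromosome in these values, a difference that was not tested. Of the 39 replicated peaks, 27 lay outside all HoxB gene bodies and 20 touched no annotated gene at all. The gaps make up 112869 of the 173941 bp. They were covered over 7.2% in the replicated list, against 5.81% of the bodies, and over 9.62% against 8.99% in the pooled list. The replicates' own lists were further apart, with 8.66% against 4.74% in replicate 1 and 13.4% against 9.9% in replicate 2.

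Covered bases of the cluster were poor in CpG, the dinucleotide at which CpG islands draw Polycomb complexes in stem cells. They held 11.5 CpG per kb in the replicated list, and 9.79 and 11.6 in replicates 1 and 2, against 21.6, 21.8 and 22.2 in the uncovered bases. GC content was 45.2% in covered and 49.2% in uncovered bases of the replicated list. Over chromosome 11 the corresponding CpG values were 9.33 and 9.81 per kb, so the covered bases of HoxB were nearer the chromosome's level than its uncovered bases. The peaks themselves resembled others in composition: the median observed-to-expected CpG ratio was 0.167 for the 39 HoxB peaks, 0.17 for the 6098 replicated peaks of chromosome 11 and 0.164 for all 38298. The ratio reached 0.6 in 3 of the 39 peaks, at the start of Hoxb8 (0.903), between Hoxb5 and Hoxb4 (0.713) and in Gm53 (0.688). Repeat sequence made up 14.2% of covered and 25.4% of uncovered bases in the replicated list. The contrast was smaller in the replicates' own lists, 21.8% against 24.9% in replicate 1 and 19.2% against 25.4% in replicate 2.

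**Figure D3:**
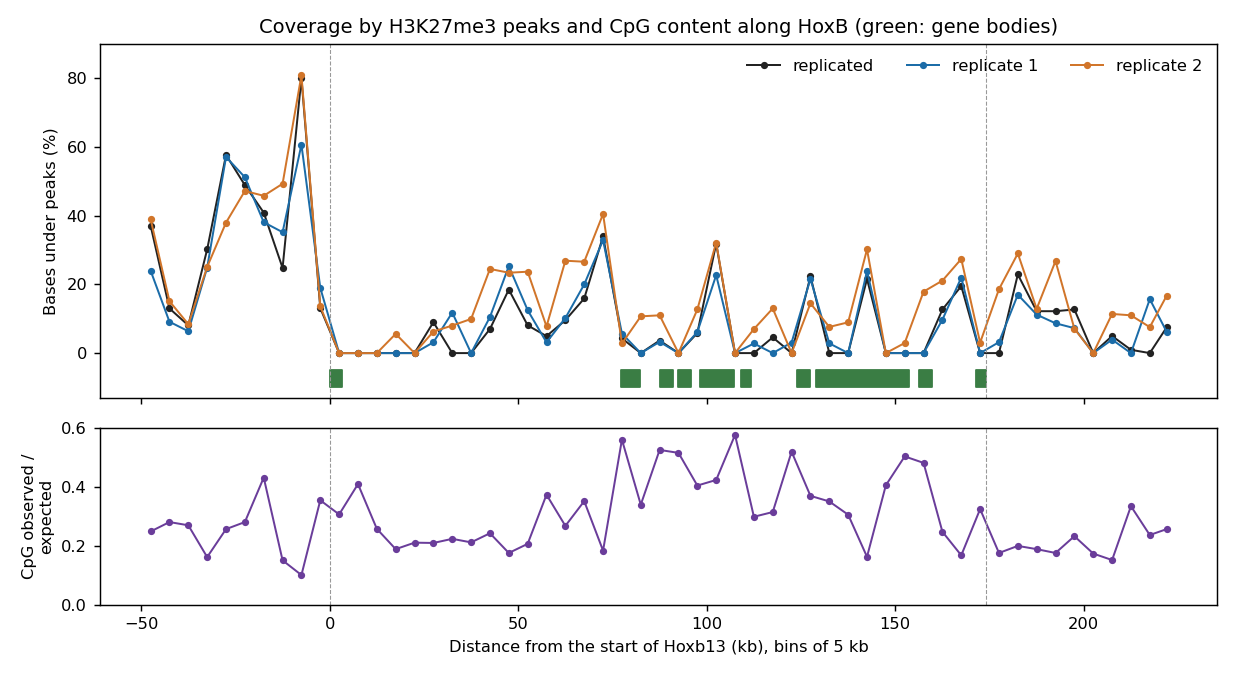
Upper panel, share of bases under peaks (y axis, percent) in bins of 5 kb, for the replicated list and each replicate, against the distance in kb from the start of Hoxb13 with gene bodies in green. Lower panel, observed-to-expected CpG ratio of the same bins. Coverage reached 80.1% before Hoxb13 and at most 34% inside the cluster in the replicated list.

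Across the 35 bins of 5 kb that tile the cluster, the last of which runs past the end of Hoxb1, coverage and the CpG ratio ran in opposite directions. Spearman's rho was -0.338 in the replicated list, and -0.352 and -0.419 in replicates 1 and 2, a description over neighbouring bins that share sequence and library. The 17 bins with a CpG ratio under the median of 0.315 were covered over a mean of 8.23% in the replicated list, and the other 18 over 5.19%. Bins without a peak numbered 18 in the replicated list, and 15 and 8 in replicates 1 and 2.

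The starts followed no common rule of base composition. Within 1 kb of the start the CpG ratio was 0.231 for Hoxb3 and 0.176 for Hoxb2, the lowest of the 10 genes, and 0.557 for Hoxb8. The outermost starts of Hoxb5 (0.701), Hoxb7 (0.688) and Hoxb9 (0.671) had the highest ratios and no covered base within 1 kb in any of the 4 lists. Hoxb13 (0.39) and Hoxb1 (0.405) also had none. Hoxb4 (0.612) and Hoxb6 (0.371) had covered bases within 1 kb in replicate 1 only.

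Peaks of the 2 replicates overlapped in part of the cluster. Of the peaks of replicate 1 in the cluster, 59.2% shared 1 bp or more with replicate 2, close to the 57.2% over chromosome 11. Of the peaks of replicate 2 it was 31.5%, against 43.4% over the chromosome. The replicates shared 4873 covered bases, 38.5% of those of replicate 1 and 23% of those of replicate 2. In the 50 kb before Hoxb13 these shares were 57.7% and 51.8%, and in the 50 kb after Hoxb1 27.4% and 14%. Both replicates' own lists met 28 of the 39 replicated peaks, whereas 4 met that of replicate 1 and not replicate 2, and 7 that of replicate 2 and not replicate 1. The peak over the Hoxb8 start was among the 4.

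The authors' values set the strength of HoxB peaks beside the chromosome's. Their −log10 q had a median of 0.98 among the replicated peaks of the cluster, the same as over chromosome 11, and 8 of the 39 reached 2 (20.5%, against 16.8% over the chromosome). In replicate 1 the median was 1.45 in the cluster and on the chromosome, and 21 of 49 peaks reached 2 (42.9% against 38.4%). Replicate 2 went the other way, with a median of 0.8 against 0.989 and 13 of 92 peaks at 2 or more (14.1% against 20.2%). The strongest peak of replicate 1 lay in the gap before Hoxb9 (chr11:96267501-96268044), with signal value 7.55, −log10 p 14.2 and −log10 q 8.16, a −log10 q that 0.266% of that list's peaks on chromosome 11 reached. Replicate 2 had 2 peaks that overlapped it. One (chr11:96267389-96267650) had −log10 q 0.8. The other (chr11:96268042-96268793), of 3.25, met only its last few bases and lay mostly beyond it. The strongest peak of replicate 2 was the one in the Hoxb3 intron (signal value 6.18, −log10 q 4.56), a level reached by 2.63% of its list on the chromosome. For the highest −log10 q of the cluster in the replicated and pooled lists, 2.52, these shares were 8.81% and 5.8%. Of the 8 replicated peaks with −log10 q of 2 or more, 5 lay between Hoxb13 and Hoxb9, 1 in Hoxb3 and 2 between Hoxb2 and Hoxb1.

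**Figure D4:**
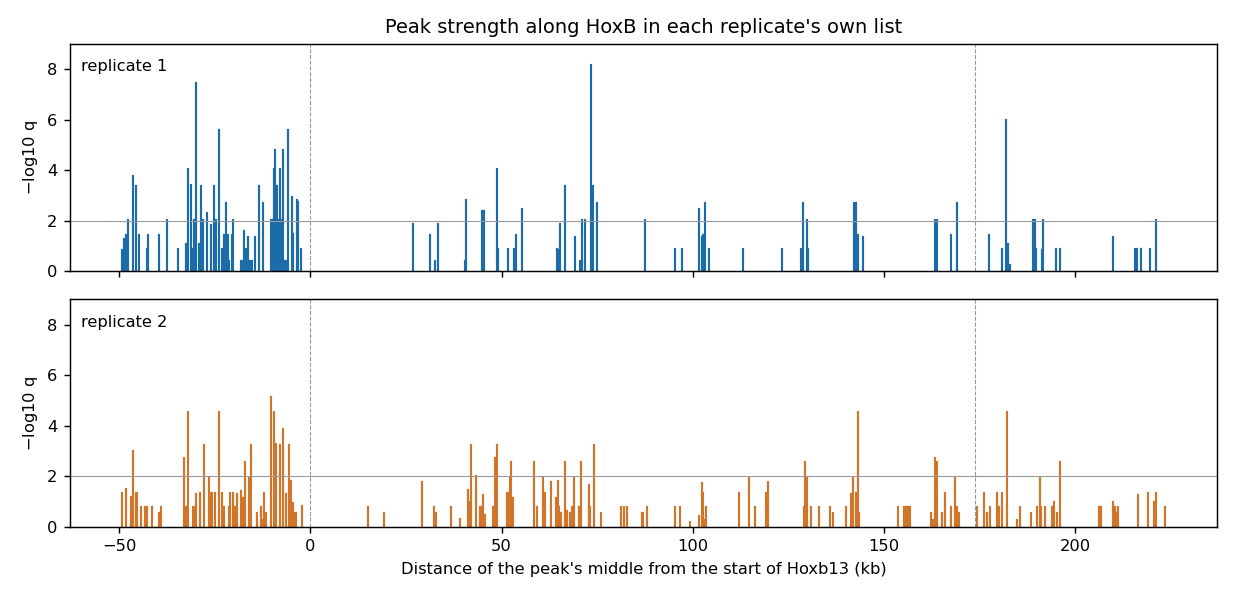
The −log10 q of each peak (y axis, height of a line) in the own lists of replicate 1 (upper) and replicate 2 (lower), against the distance in kb of the peak's middle from the start of Hoxb13, with a grey line at 2 and dashed lines at the ends of the cluster. The tallest line of replicate 1 inside the cluster is the peak of 8.16 before Hoxb9, and that of replicate 2 is the peak of 4.56 in Hoxb3.

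The microRNA genes stood on opposite sides. Mir196a-1 (chr11:96265164-96265265) was covered over 102 of its 102 bp in replicate 2 and in the lists made from both replicates, and over 86 in replicate 1, and the 22 bases of the mature miR-196a-5p printed earlier were covered in all 4 lists. It lay in a replicated peak of 495 bp with −log10 q 2.04. Mir10a (chr11:96317165-96317274), between Hoxb5 and Hoxb4, had 0 covered bases in each list, and its nearest peak was 434 bp downstream in replicate 1, at -3002 bp (upstream) in replicate 2 and 5340 bp downstream in the replicated list. The second copy of miR-196a, Mir196a-2 in HoxC, had no covered base within 5 kb in any list, nor had Mir196b in HoxA. Mir10b in HoxD had 0 covered bases in the gene in each list. It had 220 within 5 kb in the replicated list and 479 in replicate 2, but 0 in replicate 1. These 3 paralogues were added after the values of the HoxB microRNAs were seen.

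The other annotated genes of the stretch followed the peaks of their surroundings. Gm53, a long non-coding RNA gene that ends just before Mir196a-1, was covered over 11.2% of its body in the replicated list, and 11.1% and 24.6% in replicates 1 and 2. The antisense gene Gm11536 inside Hoxb3 was covered over 14.4%, 18.8% and 11.6%, and Hoxb5os, whose covered bases in the replicated list are those of the Hoxb6 patch, over 10%, 8.04% and 12%. Hoxb3os, which overlaps Hoxb2, was bare in the replicated list and replicate 1 and covered over 8.98% in replicate 2. The pseudogene Gm11539 and the small RNAs Gm27898 and Gm27605 had 0 covered bases in all 4 lists.

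Beyond the cluster the nearest coding genes were marked inside their bodies. Ttll6, 28864 bp before Hoxb13, was covered over 17.6% of its body in the replicated list, and 14.4% and 18.9% in replicates 1 and 2. For Calcoco2, an autophagy receptor gene, the shares were 14%, 19.6% and 25.6%. On the other side the next coding gene is Skap1, a T-cell adaptor gene 96336 bp after Hoxb1, covered over 28.4% in the replicated list, and 26.8% and 32.2% in replicates 1 and 2. Snx11, behind it, had 0 in all 4 lists. The 50 kb after Hoxb1 were covered over 7.18% in the replicated list, and 7.18% and 14.1% in replicates 1 and 2, close to the cluster itself.

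The other Hox clusters give the frame for these counts. A covered base in the body was found in 0 of 11 HoxA genes, 1 of 9 HoxC genes (Hoxc13) and 1 of 9 HoxD genes (Hoxd3) in the replicated list, against 4 of 10 in HoxB. In replicate 1 the counts for HoxA, HoxC and HoxD were 0, 2 and 2 against 4. In replicate 2 they were 0, 3 and 1 against 6. Within 5 kb of the start a covered base was found in 0, 5 and 2 of their genes in the replicated list, against 8 in HoxB. In replicates 1 and 2 these counts were 1, 5 and 7 against 9, and 0, 5 and 4 against 10. HoxB lies on chromosome 11, where 20.7% of genes met this rule in the replicated list, against 10.4% of all genes. The other clusters lie on other chromosomes, whose own shares were not computed. A peak within 1 kb of the start was found in as many HoxC as HoxB genes in the replicated list (2, Hoxc11 and Hoxc12) and in replicate 2 (3). In replicate 1 it was found in 1 HoxC gene and 4 HoxB genes. HoxA had 0 such genes in these 3 lists, and HoxD had 1 in the replicated list, and 0 and 2 in replicates 1 and 2. Of 24 genes of Hox partners and regulators (Meis, Pbx, Pknox and Cdx factors, Gata1, Kmt2a, Ctcf and Polycomb subunits), 2 had a covered base within 5 kb of the start in the replicated list: Meis3 with 971 bases and Cdx1 with 1453. That count is near the 10.4% of all protein-coding genes. None of the 24 had a peak within 1 kb of the start in any of the 4 lists, where the background was 3% in the replicated list. They include Gata1, the erythroid master regulator, but peaks of 1 repressive mark do not show expression, so the identity of the line was not checked by markers. At the Polycomb gene Cbx2, which also lies on chromosome 11, replicate 1 had 140 bases within 5 kb and the other lists had 0. Kmt2a, which encodes a histone methyltransferase that keeps Hox genes active, likewise had 140 in replicate 2 and 0 in the other lists.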

How the data were processed

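H3K27me3 peaks of 2 biological replicates of MEL cells were analysed as 1 group. The authors deposited 4 peak lists on mm10: 1 per replicate, 1 called on both together (pooled) and a subset of it (replicated), per the text descriptions among the deposited files, which do not state the rule for keeping a peak. Both replicates' lists also used 1 further input file whose content is not stated. The authors deposited for each peak a signal value, a score whose definition is not stated, beside the −log10 of its p-value and of its q-value. The aligner and the caller of the peaks were not given in the sources used here, and an older mm9 list was not used. Depth is unknown, since no read counts come with the peaks, and no counting interval can be given.

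Covered bases are those under the union of peaks on chromosomes 1 to 19, X and Y. Genes came from GENCODE mouse release 21 (GRCm38), keeping the longest gene of a symbol, and sequence from the NCBI copy of that build. The start is the outermost annotated 5′ end. All positions are counted from 1. Computation used Python 3.11.15, numpy 2.4.6, scipy 1.17.1, pysam 0.24.0 and samtools 1.23.1, and was tested on simulated peaks, where 0 of 1000 windows were wrong. The genes, lists, rules and alternatives were chosen with earlier results of these data known. All 10 HoxB genes, every other annotated gene of the stretch, the nearest 2 coding genes on each side and the partner genes with a replicated peak within 5 kb were named. Alternatives were other lists, −log10 q of at least 2, the upper 50% by signal value, wider peaks, 50% of a peak inside a region, other windows, any annotated start and other joining distances.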

Additional observations from a re-analysis of the deposited data

How the results depend on the processing

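The share of HoxB covered was 6.71% in the replicated list. It fell to 1.67% with peaks of −log10 q of at least 2, and ranged from 7.28% to 12.2% in the replicates' own lists. With −log10 q of at least 2, the number of genes with a covered base in the body was 1 in place of 4, within 5 kb of the start 2 in place of 8, and with a peak within 1 kb of the start 0 in place of 2. With windows of 2.5 kb on each side, 4 genes had a covered base, in place of the 8 at 5 kb and the 2 at 1 kb. The count within 1 kb was 1 with peaks of at least the median width, and 3 to 4 in the replicates' own lists. Domains numbered 12 with peaks joined within 3 kb, 20 within 1 kb and 7 within 10 kb. The cause of these differences was not tested, apart from the fewer peaks or smaller windows that the alternatives leave by construction. Of the 33 values of these results under alternatives, the other 22 stayed within 1.5 times the count or within 1 SD between replicates. Of 186 values of single genes and gaps, 127 did so. A wide spread between the replicates widens this limit. The gap from Hoxb4 to Hoxb3 counted as within it at 6.99% in replicate 2, against 33.5% in the replicated list (SD 30.8). Values of 0 that stayed at 0 counted too, so these counts do not measure how stable the results are. No paired analysis was possible because there is 1 group. The depth of each replicate is unknown and its part in these differences was not tested. Uncovered means only that no peak was called.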
